A study of Mus musculus with 10 samples.

Results

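Transcripts of 10 integrin chains were followed in activated mouse T cells with and without the transcription factor KLF13. The genes were taken from a list of symbols and not by a cut on their values, but earlier results of these data were known when the list was chosen. Of these genes 6 code for alpha chains (Itgae, Itga4, Itgal, Itgav, Itga6 and Itga1) and 4 for beta chains (Itgb7, Itgb1, Itgb2 and Itgb3). A probe set counted for a gene where the platform annotation gave it that gene alone, and each of the 10 genes was found in both deposited tables, among 19048 genes measured in both. The KO group was 5 male Balb/C mice lacking KLF13 (KO1 to KO5) and the WT group 5 male Balb/C mice (WT1 to WT5), all aged 12 weeks. CD3+ T cells of both groups were taken from the spleen and cultured for 4 days with plate-coated anti-CD3 and soluble anti-CD28 antibodies, so every array is of stimulated cells and no resting cells were analysed here. The labels do not say where in Klf13 the deletion lies or which cells carry it. The labels name each array after a mouse of its own.

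Integrins are receptors of 1 alpha and 1 beta chain that bind T cells to other cells and to the matrix, and they bind firmly once signals from inside the cell, through talin and kindlin, have opened them. Itgal and Itgb2 code for αL and β2, the LFA-1 receptor that binds ICAM molecules on antigen-presenting cells and endothelium. α4 (Itga4) pairs with β1 (Itgb1) to bind VCAM-1 at inflamed vessels or with β7 (Itgb7) to bind MAdCAM-1 of gut vessels. αE (Itgae, CD103) pairs with β7 alone and binds E-cadherin of epithelia. αv (Itgav) pairs with β3 (Itgb3), β1 and other beta chains and binds vitronectin, fibronectin and latent TGF-β. α6 (Itga6) with β1 binds laminin, and α1 (Itga1) with β1 binds collagen.

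The arrays came as an exon-level table (replicates 1 to 3 of each genotype) and a gene-level table (replicates 4 and 5), normalized separately, with values that are log2 RMA signals. The exon-level arrays lay on separate scales, with medians of 5.23 in KO1 and 5.21 in WT1, beside 6.25 to 6.43 in replicates 2 and 3, so that KO minus WT was taken within 3 scale sets: replicate 1, replicates 2 and 3, and replicates 4 and 5. KO3 stood apart. Across probe sets its correlation with the other exon-level arrays was 0.796 to 0.848, against 0.874 to 0.976 among those, and it held 93411 distinct values, against 107256 to 128005. The difference of each integrin over all arrays, of each pair and of the probe sets of each gene is therefore also given without it. In replicates 2 and 3 the difference also moved with brightness, from a median of 0.21 in the dimmest decile of genes to -0.67 in the brightest. The Klf13 transcript itself was 0.549 of its WT level (log2 difference -0.86 ± 0.12, SE, 5 against 5, limma adjusted p = 0.0127). It was lower in each KO array than in every WT array of its set, as held for 10.8% of all tested genes. The call was lost without WT2, WT3, WT4, KO4 or KO5 (adjusted p = 0.0502 to 0.0692) and with the 2 tables in place of the 3 scale sets as block (adjusted p = 0.9998), and with the deletion's place unknown the Klf13 probe sets may lie outside it. The T cell adhesion receptor Cd2 stood at percentiles 99.3 to 99.5 of brightness in the WT sets. Of markers of other cells, 4 of 7 B cell, 4 of 5 NK and 7 of 10 myeloid markers (Ms4a1, Klrb1c and Cd14 among them) were too dim to be tested. The others of these 3 lists were led by the B cell gene Cd79b and the myeloid gene Cd68, at percentiles 57.6 to 64.4 and 59.3 to 65.8. The platelet gene Treml1 stood at 54.5 to 68.9 and the mast cell gene Cpa3 at 46.2 to 69.8. Brightness depends on the probes, so these percentiles do not measure the share of each cell type.

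KLF13 is a zinc-finger factor of the family that binds CACCC boxes and GC-rich DNA. RefSeq promoter windows of GRCm38.p6, from 250 bases before to 50 bases after a gene's start, were at hand for 5 of the 10 genes (Itgb7, Itga4, Itgb1, Itgav and Itga1). The 2 shown, those of the α4β7 receptor, hold the most CACCC matches of the 5, at 4 each. Itga4 lies at chr2:79255176-79255475 on the plus strand, with 3 matches on the gene's own strand and 1 on the other, and Itgb7 at chr15:102231886-102232185 on the minus strand, with 2 on each. Each is written in the direction of transcription, and capitals mark CACCC or, for the other strand, GGGTG.
Itga4: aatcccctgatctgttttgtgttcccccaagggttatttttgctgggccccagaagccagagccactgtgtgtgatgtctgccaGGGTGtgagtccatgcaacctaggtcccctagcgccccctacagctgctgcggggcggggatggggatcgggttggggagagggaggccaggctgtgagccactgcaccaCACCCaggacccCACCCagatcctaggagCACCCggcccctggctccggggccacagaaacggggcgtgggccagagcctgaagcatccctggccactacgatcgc
Itgb7: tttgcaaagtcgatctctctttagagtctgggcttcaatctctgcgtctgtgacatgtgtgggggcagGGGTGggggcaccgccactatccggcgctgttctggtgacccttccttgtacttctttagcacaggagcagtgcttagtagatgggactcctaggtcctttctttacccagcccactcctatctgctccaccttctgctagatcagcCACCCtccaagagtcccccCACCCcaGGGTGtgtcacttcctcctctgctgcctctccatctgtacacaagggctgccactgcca
The Itgb1 and Itga1 windows hold 2 matches each and the Itgav window 1. At least 1 match is present in 57.5% of 32851 promoters of this length and at least 4 in 3.10%. A match is a description of letters and not a binding site.

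The first comparison asked which integrin transcripts differ between KO and WT over all 10 arrays. None of the 9 tested genes passed (limma with scale sets as block, 0 called at an adjusted p under 0.05, 3 at an unadjusted p under 0.05). Over all 12485 tested genes 73 were called, or 0.585%, and 14.9% had an unadjusted p under 0.05. Itga1 was too dim to be tested. Of the 9 differences 7 were below 0, where 63.5% of all genes were, and their median was -0.24, beside -0.097 over all genes. Without KO3, 6 of the 9 were below 0, with a median of -0.096, beside -0.043 over all genes. The sets disagreed: the median of the 9 was -0.10 in replicate 1, -0.71 in replicates 2 and 3 and 0.08 in replicates 4 and 5, beside medians of all genes of -0.018, -0.22 and -0.010. These RNAs come from whole cultures, so fewer cells of a type and less RNA per cell cannot be told apart.

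**Figure D1:**
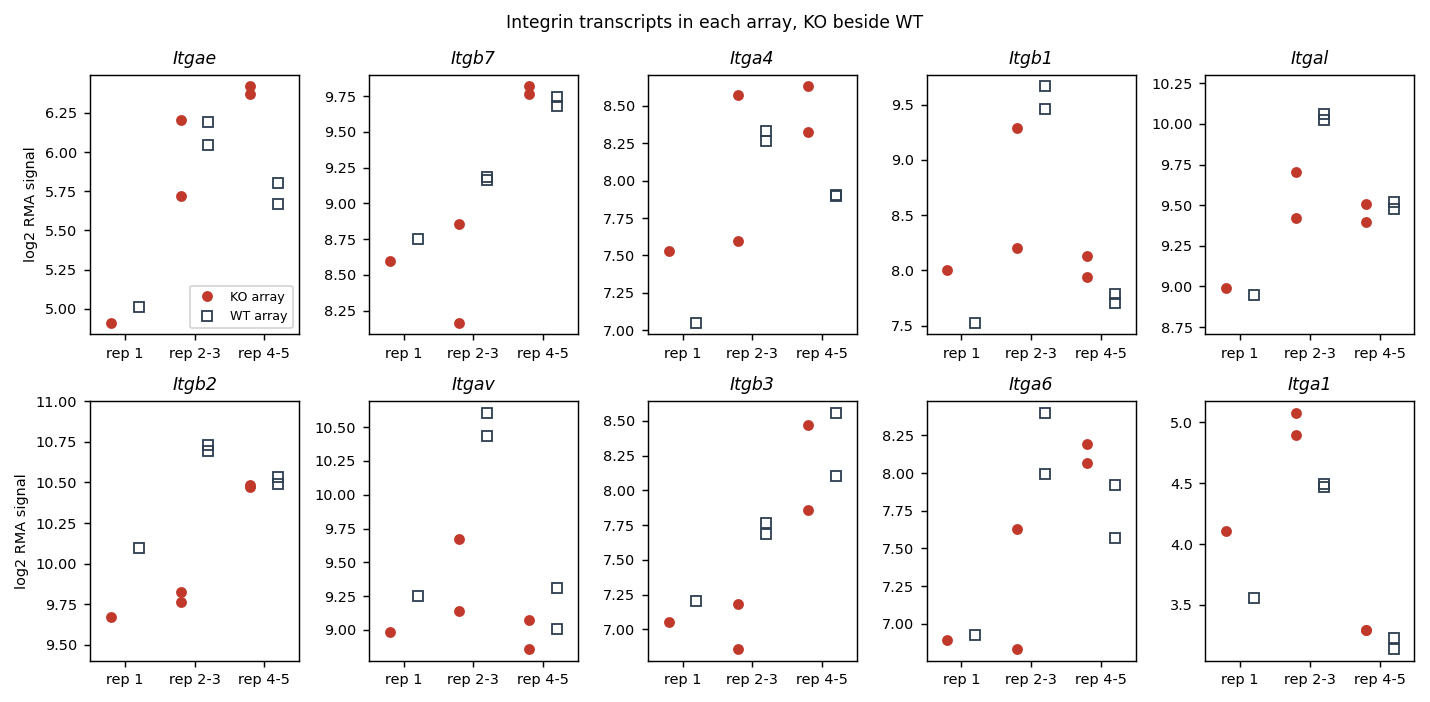
Log2 RMA signal (y axis) of each integrin gene in each array, by scale set (x axis); filled circles are KO arrays and open squares WT arrays, and each panel has its own y axis. Itgb2 lies lower in every KO array than in the WT arrays of its set, while Itga4 lies higher in replicate 1 and replicates 4 and 5 and overlaps in replicates 2 and 3.

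In WT arrays the integrin probe sets spanned most of the range of brightness, given as the percentile among all measured genes in replicate 1, replicates 2 and 3, and replicates 4 and 5. Itgb2 stood at 99.3, 98.7 and 99.2, Itgal at 97.6 in each, Itgav at 98.3, 98.5 and 96.5, and Itgb7 at 97.0, 93.5 and 98.0. Itgb1 (89.1, 95.7 and 86.4), Itga4 (83.6, 84.5 and 88.2), Itga6 (82.0, 83.1 and 86.4) and Itgb3 (85.4, 76.5 and 91.9) came from the upper part as well. Itgae lay near the middle, at 53.7, 53.4 and 60.6, and Itga1 low, at 20.7, 16.6 and 21.7. Brightness depends on the probes, so these percentiles describe the signal alone and order the transcripts neither by abundance nor by precision.

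Itgb2 and Itgav, the common chain of leukocyte integrins and the αv chain, had the lowest values of the family over all arrays, and both were lower in each of the 5 KO arrays than the WT mean of their set. Itgb2 was at 9.67 in KO1 against 10.10 in WT1, at 9.83 and 9.77 in KO2 and KO3 against 10.70 and 10.73 in WT2 and WT3, and at 10.485 and 10.474 in KO4 and KO5 against 10.535 and 10.487 in WT4 and WT5. The genotypes did not overlap in any of the 3 sets, as held for 10.8% of all tested genes in this direction, but in replicates 4 and 5 they lay close together. The difference of Itgb2 was -0.46 ± 0.15 (SE, 5 against 5), or 0.72 of the WT level, with a limma adjusted p of 0.233. Itgav was at 8.99 in KO1 against 9.25 in WT1, at 9.67 and 9.14 in KO2 and KO3 against 10.44 and 10.61 in WT2 and WT3, and at 8.86 and 9.08 in KO4 and KO5 against 9.004 and 9.31 in WT4 and WT5. Here the genotypes were apart in the exon-level sets and overlapped in replicates 4 and 5. Its difference was -0.57 ± 0.19 (SE, 5 against 5, limma adjusted p = 0.231), and within the sets -0.26, -1.11 and -0.19. Without KO3 Itgb2 was at -0.39 (adjusted p = 0.128) and Itgav at -0.41 (adjusted p = 0.102).

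In the exon-level table alone limma called 0 of 12485 genes (1019 at an unadjusted p under 0.05, or 8.16%). Itgb2 differed there by -0.75 ± 0.19 (SE, 3 against 3, limma adjusted p = 0.418) and Itgav by -0.83 ± 0.25 (adjusted p = 0.552). Without KO3 the table called 426 genes, or 3.41%, with 2.53% called lower, and Itgb2 was among them at -0.69 (limma adjusted p = 0.0184), while Itgav was at -0.60 (adjusted p = 0.0532). In the gene-level table Itgb2 was at -0.03 ± 0.12 (SE, 2 against 2, adjusted p = 0.942) and Itgav at -0.19 ± 0.15 (adjusted p = 0.602). Whether the difference itself differed between the tables was tested as an interaction, which called 0 of 12485 genes in limma (658 at an unadjusted p under 0.05, or 5.27%). For Itgb2 the gene-level minus the exon-level difference was 0.72 ± 0.24 (SE, 5 against 5, limma adjusted p = 0.872), or 0.66 (adjusted p = 0.112) without KO3. Quantile normalization within each table moved Itgb2 to -0.26 over all arrays (adjusted p = 0.419) and Itgav to -0.39 (adjusted p = 0.371).

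Itgal, the αL chain that pairs with β2, was lower by value mainly in replicates 2 and 3. It was at 8.99 in KO1 against 8.95 in WT1, at 9.71 and 9.42 in KO2 and KO3 against 10.02 and 10.06 in WT2 and WT3, and at 9.40 and 9.51 in KO4 and KO5 against 9.48 and 9.52 in WT4 and WT5. The genotypes overlapped in replicates 4 and 5, and the difference over all arrays was -0.20 ± 0.13 (SE, 5 against 5, limma adjusted p = 0.438). It came to -0.11 without KO3 and -0.02 after quantile normalization within each table. Itgb3, the β3 chain best known from platelets and osteoclasts, was at 7.05 in KO1 against 7.20 in WT1, at 7.18 and 6.86 in KO2 and KO3 against 7.77 and 7.68 in WT2 and WT3, and at 7.86 and 8.47 in KO4 and KO5 against 8.56 and 8.10 in WT4 and WT5. Its replicates 4 and 5 overlapped, and its difference was -0.38 ± 0.17 (SE, 5 against 5, unadjusted p = 0.0444 and adjusted p = 0.319 in limma), or -0.28 without KO3. Other platelet genes stood beside it: of 5 measured platelet and megakaryocyte markers 3 were tested and 3 were above 0 with 0 called, the platelet factor genes Pf4 and Ppbp were too dim to be tested, and the summed linear signal of the list was 158 in KO1 and 151 in WT1, 351 to 419 in KO and 300 to 341 in WT of replicates 2 and 3, and 136 to 150 in KO and 114 to 124 in WT of replicates 4 and 5. In replicate 1, where Itgb3 was at -0.15, the tested markers were at -0.21 (Gp9), 0.16 (Itga2b) and 0.11 (Treml1). The part of platelets in the Itgb3 value was not tested.

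Itga4 and Itgae, the alpha chains of the β7 receptors, were the 2 members with values above 0 over all arrays. Itga4 was at 7.53 in KO1 against 7.05 in WT1, at 8.57 and 7.60 in KO2 and KO3 against 8.26 and 8.33 in WT2 and WT3, and at 8.32 and 8.63 in KO4 and KO5 against 7.90 and 7.90 in WT4 and WT5. Of the 5 KO arrays 4 were above the WT mean of their set, and KO3 alone was below it. Over all arrays the difference was 0.24 ± 0.20 (SE, 5 against 5, limma adjusted p = 0.523). Without KO3, Itga4 was at 0.46 and was called higher (limma adjusted p = 0.0243), as were 101 of 12502 tested genes, or 0.808%. With array weights, which count less reliable arrays less, it was at 0.47 and called as well (adjusted p = 0.0186), as were 1.16% of genes in that direction. In the gene-level table it was at 0.58 ± 0.14 (SE, 2 against 2, adjusted p = 0.0684), a 1-table value. It passed there after quantile normalization (0.61, adjusted p = 0.0385, with 1.11% of genes called higher). So it did with the replicate number as block (adjusted p = 0.0181, with 1.52% called higher), although the numbers were not taken to pair mice. With single arrays left out it was at 0.42 to 0.73 in that table. Over all arrays it was then at 0.14 to 0.46 (limma adjusted p of 0.0243 to 0.725).

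Itgae was at 4.91 in KO1 against 5.01 in WT1, at 6.20 and 5.72 in KO2 and KO3 against 6.04 and 6.19 in WT2 and WT3, and at 6.37 and 6.42 in KO4 and KO5 against 5.67 and 5.80 in WT4 and WT5. The genotypes overlapped in replicates 2 and 3 and were clearly apart in replicates 4 and 5, with the KO arrays above. Over all arrays the difference was 0.18 ± 0.17 (SE, 5 against 5, limma adjusted p = 0.562). Single arrays moved it, to 0.31 without KO3 and 0.088 without WT4, and it was 0.056 with the median of probe sets in place of their mean. In the gene-level table alone it rose by 0.66 ± 0.12 (SE, 2 against 2, limma adjusted p = 0.0287), where 339 of 12485 genes were called (2.72%) and 90 of them were higher (0.721%). It was the 1 member called in that table. Leaving out 1 array ended the call 3 times out of 4: the adjusted p was 0.0656 without WT4, 0.0813 without KO4 and 0.0947 without KO5, and 0.0182 without WT5. In the exon-level table it was at -0.14 ± 0.20 (SE, 3 against 3, adjusted p = 0.733), and the gene-level minus exon-level difference was 0.80 ± 0.26 (SE, 5 against 5, unadjusted p = 0.0107 and adjusted p = 0.872 in the limma interaction). αE is carried mainly by CD8 T cells and regulatory T cells, and in replicates 4 and 5 the CD8 chains Cd8a and Cd8b1 were at 0.33 and 0.21 and the regulatory factor Foxp3 at 0.48. The other lineage genes there were at 0.01 (Cd4), -0.23 (Zbtb7b) and 0.08 (Runx3). In replicate 1, with Itgae at -0.10, Cd8a, Cd8b1 and Foxp3 were at -0.09, -0.21 and 0.56. In replicates 2 and 3, with Itgae at -0.16, these 3 genes were at -0.75, -0.05 and -0.25. Their part in the Itgae value was not tested.

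Itgb7, the beta partner of both, had a value below 0. It was at 8.59 in KO1 against 8.75 in WT1, at 8.86 and 8.17 in KO2 and KO3 against 9.16 and 9.19 in WT2 and WT3, and at 9.77 and 9.82 in KO4 and KO5 against 9.74 and 9.68 in WT4 and WT5. KO arrays were below WT arrays in the exon-level sets and just above them in replicates 4 and 5. The difference over all arrays was -0.26 ± 0.17 (SE, 5 against 5, limma adjusted p = 0.440), with -0.15, -0.66 and 0.08 in the sets. It came to -0.096 without KO3 and -0.13 after quantile normalization within each table.

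Itgb1, the β1 chain shared by many receptors, and its laminin-binding partner Itga6 had differences of both signs between sets. Itgb1 was at 8.004 in KO1 against 7.53 in WT1, at 9.29 and 8.21 in KO2 and KO3 against 9.46 and 9.66 in WT2 and WT3, and at 7.94 and 8.13 in KO4 and KO5 against 7.70 and 7.79 in WT4 and WT5. KO arrays were above WT arrays in replicate 1 and replicates 4 and 5 and below them in replicates 2 and 3. The difference of -0.11 ± 0.25 (SE, 5 against 5, limma adjusted p = 0.794) became 0.16 without KO3 (adjusted p = 0.524) and 0.03 after quantile normalization within each table, so no direction can be given for Itgb1. Itga6 was at 6.89 in KO1 against 6.92 in WT1, at 7.63 and 6.83 in KO2 and KO3 against 7.99 and 8.40 in WT2 and WT3, and at 8.07 and 8.20 in KO4 and KO5 against 7.92 and 7.57 in WT4 and WT5. Its KO arrays were below WT in the exon-level sets and above WT in the gene-level table, with -0.24 ± 0.24 over all arrays (SE, 5 against 5, limma adjusted p = 0.592), -0.01 without KO3 and 0.10 with array weights. The gene-level minus exon-level difference of Itga6 was 1.04 ± 0.41 (SE, 5 against 5, unadjusted p = 0.0281 and adjusted p = 0.872 in the limma interaction).

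Itga1 did not reach the brightness needed for the test. It was at 4.11 in KO1 against 3.56 in WT1, at 4.90 and 5.08 in KO2 and KO3 against 4.49 and 4.47 in WT2 and WT3, and at 3.30 and 3.29 in KO4 and KO5 against 3.23 and 3.14 in WT4 and WT5. The KO arrays were above the WT arrays in each set, as held for 1.63% of the tested genes. Those leave out genes as dim as Itga1, for which the share was not counted. In replicates 2 and 3 the dimmest decile of tested genes had a median of 0.21. With no filter on dim genes the Itga1 difference was 0.36 (limma adjusted p = 0.271), or 0.31 by value without KO3.

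The spread between sets was in part shared with genes of the same brightness. In replicates 2 and 3 all 9 tested integrins were below 0, as were 65.2% of all genes, and 7 of the 9 had every KO array below every WT array, as did 43.1% of all genes. Itgb1, Itgal, Itgb2 and Itgav belong to the brightest decile of genes there, whose median was -0.67. Relative to the median of its own decile, Itga6 was at -0.55, Itgav at -0.44, Itgae at -0.30, Itgb3 at -0.29, Itgb2 at -0.25, and Itgb7 and Itgb1 at -0.14 each, while Itgal was at 0.19 and Itga4 at 0.25. In replicate 1 the brightest decile had a median of -0.14. Relative to their own deciles there, Itgb1 was at 0.52, Itga4 at 0.50 and Itgal at 0.18, Itgb2 was at -0.28, and the other 5 tested integrins lay between -0.13 and -0.01. In replicates 4 and 5 no decile had a median farther from 0 than 0.055, and 5 of the 9 integrins (Itgae, Itga4, Itga6, Itgb1 and Itgb7) had both KO arrays above both WT arrays, as did 20.3% of all genes. KO3 carried most of the brightness trend, from 0.39 in the dimmest to -0.88 in the brightest decile, against 0.02 and -0.43 in KO2, and with KO2 as the one KO array of its set 7 of the 9 integrins were below 0 (median -0.34, beside -0.11 over all genes). The part of brightness in each integrin's value was not tested.

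**Figure D2:**
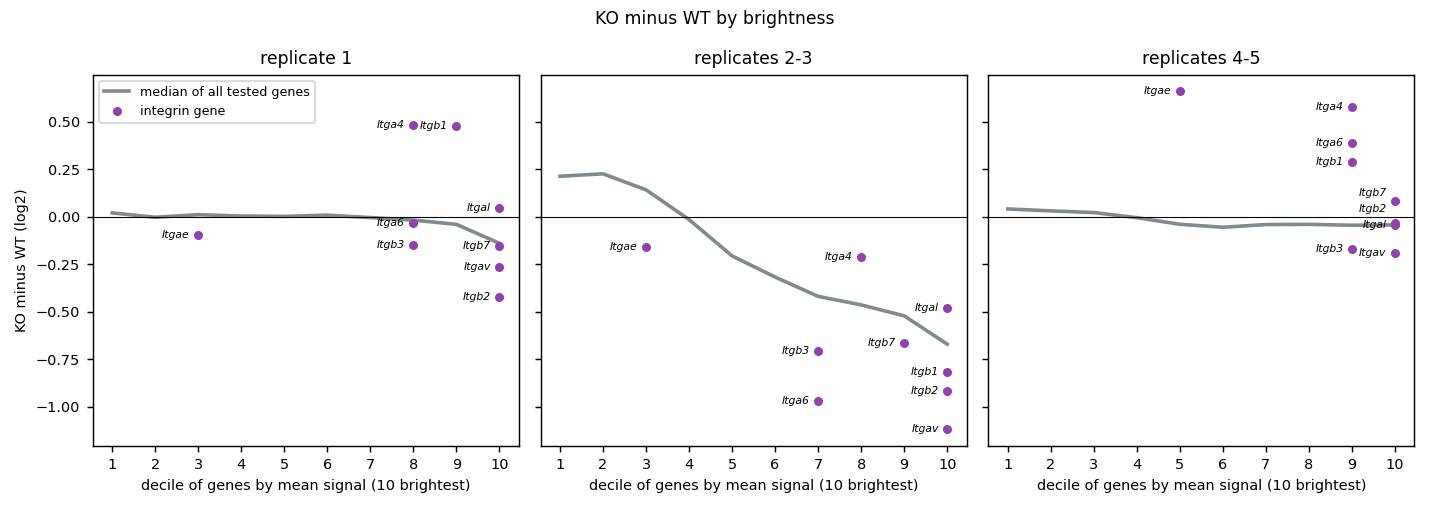
KO minus WT in log2 units (y axis) against the decile of tested genes by mean signal, 10 being the brightest (x axis), in each scale set; the line is the median of all tested genes in the decile and the points are the 9 tested integrin genes. In replicates 2 and 3 the line runs from 0.21 to -0.67 and most integrins sit on its low side, while in replicates 4 and 5 it stays flat and Itgae and Itga4 lie at 0.66 and 0.58.

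A receptor needs both chains, so the second comparison asked whether an alpha chain moved differently from its beta partner. For each of 8 pairs the log2 value of the alpha gene minus that of the beta gene was taken in each array, which removes whatever shift both share, and genotypes were permuted within the scale sets (exact, 2-sided, 72 arrangements, smallest possible p 0.0278). At 8 pairs that smallest p becomes 0.0556 after adjustment when 4 pairs reach it, as happened here, so 0 of 8 pairs passed. The pairs share chains and are not independent of each other.

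Itga4 stood higher relative to Itgb7 in the KO arrays by 0.51 ± 0.077 (SE, 5 against 5, exact permutation p = 0.0278, adjusted p = 0.0556). Relative to the WT mean of their set, the KO arrays were at 0.64 (KO1), 0.60 and 0.31 (KO2 and KO3) and 0.37 and 0.62 (KO4 and KO5), against -0.02 to 0.02 in the WT arrays. No KO array overlapped with WT, and the size was alike in the 3 sets, at 0.64, 0.45 and 0.49. This was so although each gene alone ran in opposite directions between replicates 2 and 3 and replicates 4 and 5. Each of the 4 pairs at the smallest p was without overlap in all sets, which that p requires, so it is no further evidence. How often other pairs of genes are so was not counted. The lack of overlap is therefore not shown to be a trait of integrin partners.

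Itgae relative to Itgb7 was at 0.45 ± 0.098 (SE, 5 against 5, exact permutation p = 0.0278, adjusted p = 0.0556). The KO arrays were at 0.06 (KO1), 0.40 and 0.61 (KO2 and KO3) and 0.58 and 0.58 (KO4 and KO5), against values from -0.06 to 0.06 (WT2 and WT3) and from -0.10 to 0.10 (WT4 and WT5). Replicate 1 thus showed little of it. With the median of probe sets and quantile normalization together the value was 0.21 (adjusted p = 0.259). In replicates 2 and 3 Itgae lay in decile 3 of brightness, whose median difference was 0.14, and Itgb7 in decile 9, whose median was -0.52. In replicates 4 and 5, where the deciles hardly differed, the pair was at 0.58.

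Itga4 relative to Itgb1 was at 0.36 ± 0.10 (SE, 5 against 5, exact permutation p = 0.0278, adjusted p = 0.0556). The KO arrays were at 0.004 (KO1), 0.55 and 0.65 (KO2 and KO3) and 0.23 and 0.34 (KO4 and KO5), against -0.07 to 0.07 for WT2 and WT3 and -0.05 to 0.05 for WT4 and WT5. Both genes were higher by 0.48 in KO1, so that nothing separated them in replicate 1. Itgav relative to Itgb1 went the other way, at -0.46 ± 0.13 (SE, 5 against 5, exact permutation p = 0.0278, adjusted p = 0.0556). The KO arrays were at -0.74 (KO1), -0.57 and -0.03 (KO2 and KO3) and -0.49 and -0.47 (KO4 and KO5), against -0.02 to 0.02 for WT2 and WT3 and -0.11 to 0.11 for WT4 and WT5. KO3 barely cleared the lower WT array, and the other 4 KO arrays stood well below.

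The LFA-1 chains were less far apart: Itgal relative to Itgb2 was at 0.26 ± 0.11 (SE, 5 against 5, exact permutation p = 0.111, adjusted p = 0.178), with 0.47 in replicate 1, 0.44 in replicates 2 and 3 and -0.01 in replicates 4 and 5. The genotypes were apart in both exon-level sets and overlapped in the gene-level table. Itgav relative to Itgb3 was at -0.19 ± 0.18 (exact permutation p = 0.306), Itga6 relative to Itgb1 at -0.12 ± 0.14 (p = 0.389) and Itga1 relative to Itgb1 at 0.47 ± 0.37 (p = 0.25), each overlapping between genotypes in at least 1 set. Without KO3 the pairs at the smallest p had values of 0.56 (Itga4 and Itgb7), 0.40 (Itgae and Itgb7), 0.30 (Itga4 and Itgb1) and -0.57 (Itgav and Itgb1). The other pairs had 0.27 (Itgal and Itgb2), -0.13 (Itgav and Itgb3), -0.16 (Itga6 and Itgb1) and 0.15 (Itga1 and Itgb1), the last being much smaller than with KO3. With the median of probe sets and quantile normalization together Itgav relative to Itgb3 was at -0.006.

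**Figure D3:**
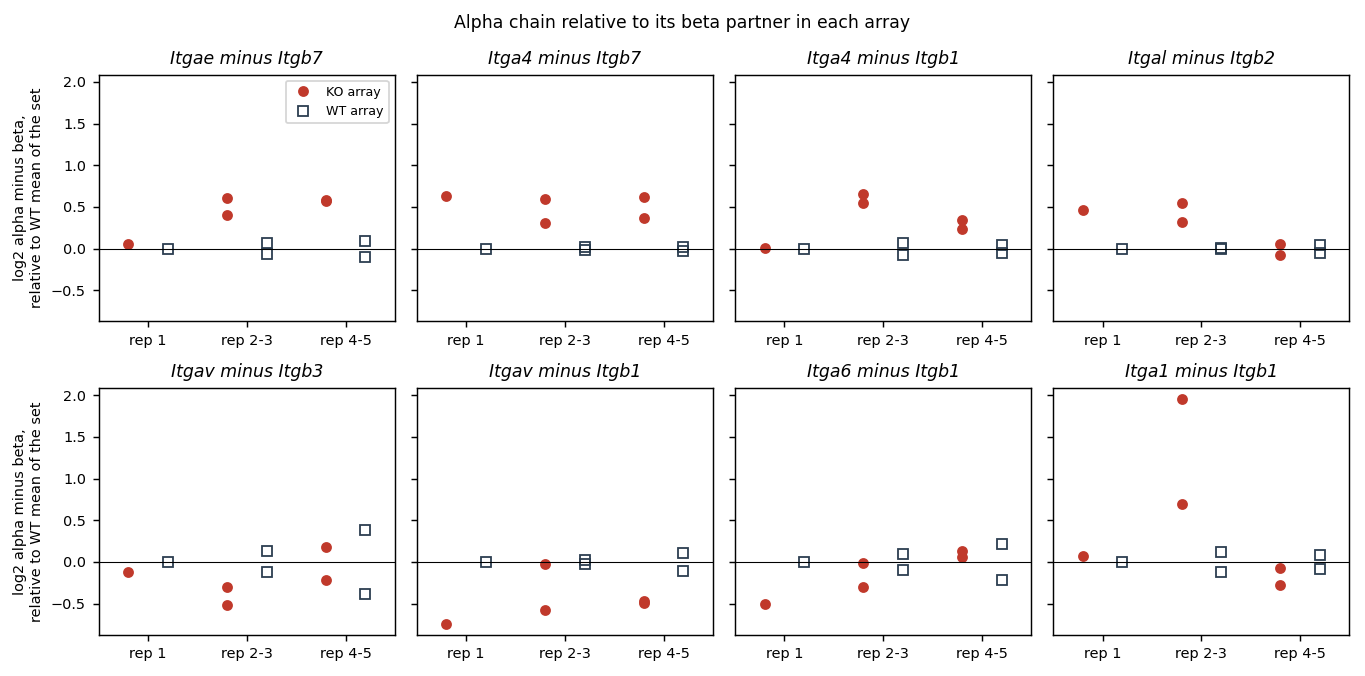
Log2 value of the alpha gene minus that of the beta gene, set to 0 at the WT mean of each scale set (y axis), by scale set (x axis); filled circles are KO arrays and open squares WT arrays. For Itga4 and Itgb7 the KO arrays lie between 0.31 and 0.64, and for Itgav and Itgb1 between -0.74 and -0.03.

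The exon-level table allows a look along each gene. The 10 genes had 247 probe sets, of which 217 were bright enough to be tested. Of the 247, 74 were higher and 173 lower by value in KO, and 0 of the 217 were called in limma (33 at an unadjusted p under 0.05, smallest adjusted p 0.743), as were 0 of all 169103 tested probe sets (7898 at an unadjusted p under 0.05, or 4.67%). The median difference of all tested probe sets was itself -0.18, and the share of them below 0 was not counted. The counts below 0 are therefore no trait shown for integrins. Probe sets of 1 gene share its RNA and arrays and are not replicates. Itgav and Itgb7 were the most uniform: 29 of 30 Itgav probe sets were below 0 (median -0.83) and 14 of 14 Itgb7 probe sets (median -0.51). Itgb2 had 16 of 17 below 0 (median -0.66), Itgal 27 of 32 (-0.37), Itga6 21 of 25 (-0.81), Itgb1 15 of 19 (-0.51) and Itgb3 12 of 16 (-0.68). Itga4 was split, with 17 above and 16 below 0 (median 0.01), and so was Itgae, with 15 above and 17 below (median -0.04). Itga1 had 23 of 29 above 0 (median 0.27). Without KO3, 91 of the 247 were higher and 156 lower by value, where the median of all tested probe sets was -0.098. Itgav then had 30 of 30 below 0 (median -0.55), Itgb7 14 of 14 (-0.23), Itgb2 16 of 17 (-0.46), Itgal 25 of 32 (-0.24), Itga6 20 of 25 (-0.52) and Itgb3 14 of 16 (-0.21). Itga4 was no longer split without KO3, with 29 of 33 above 0 (median 0.37), while Itgb1 was, with 10 above and 9 below (median 0.01). Itgae had 17 of 32 above 0 without KO3 (median 0.03) and Itga1 20 of 29 (median 0.34).

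A few probe sets read far off in single KO or WT arrays and moved the gene means. Itga1 probe set 10412308 read 14.03, 13.11 and 2.92 in KO1, KO2 and KO3, against 2.44, 2.94 and 3.25 in WT1, WT2 and WT3, a difference of 7.14 that is the highest of the family. Itga1 probe set 10412299 went the other way in replicate 1, reading 2.37 in KO1 against 8.71 in WT1. The median over the Itga1 probe sets in replicate 1 was 0.08, where the mean gave 0.55. Itgal probe set 10557592 read 8.14, 13.59 and 7.24 in KO1 to KO3, against 3.76, 5.997 and 6.05 in WT1 to WT3 (4.39), while its probe sets 10557606 and 10557605 were the lowest of that gene at -2.38 and -1.88. For Itgal in replicate 1 the median of probe sets was -0.09, where the mean was 0.04. Itga6 probe set 10472838 read 13.22 in KO1 and 6.15 to 8.41 in the other 5 arrays, and the Itga6 median in replicate 1 was -0.44, where the mean was -0.03. Itgae probe set 10378296 read 10.29 in WT1 and 4.39 to 6.56 in the others, and the Itgae median in replicate 1 was 0.13, where the mean was -0.10. After subtraction of array medians, 1 array stood more than 4 log2 units above the next in 4 of the 247 integrin probe sets (10378296, 10412299, 10472838 and 10557592) and in 2297 of all 241576 (0.951%), 1177 of these in KO2 and 559 in KO1.

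**Figure D4:**
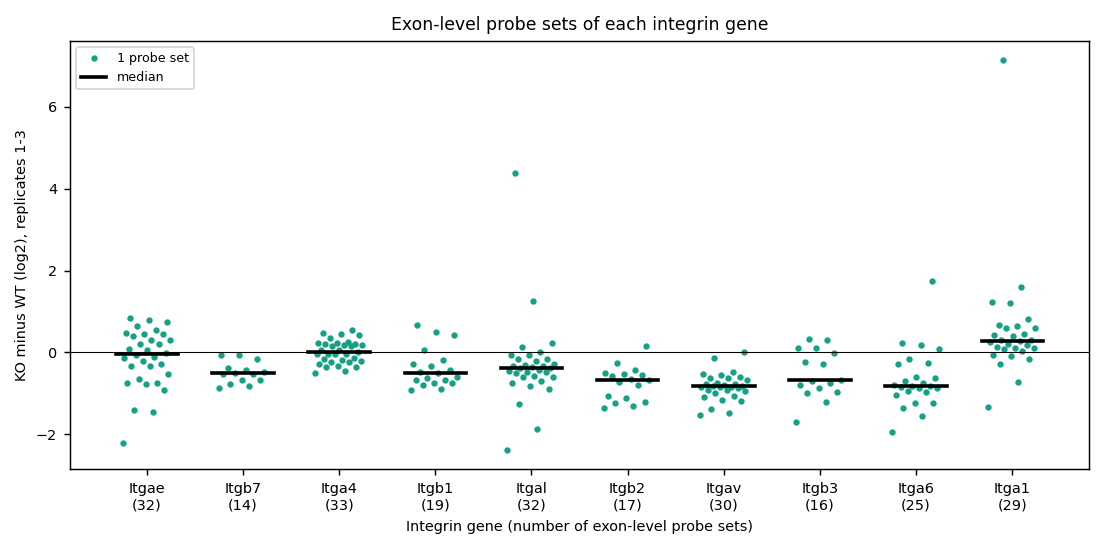
KO minus WT in log2 units over replicates 1 to 3 (y axis) for each exon-level probe set of the 10 integrin genes (x axis, with the number of probe sets); each point is 1 probe set and the bar is the median of the gene. Itgav, Itga6, Itgb3 and Itgb2 have medians of -0.83 to -0.66, Itga4 and Itgae lie around 0, and single probe sets of Itga1 and Itgal stand at 7.14 and 4.39.

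Other genes of the integrin pathway were read from the same fit, with lists given as counts and medians that include KO3 unless said otherwise. Of all tested genes 63.5% were below 0 (median -0.097), and 14.9% had an unadjusted p under 0.05 in limma. Of 11 tested other integrin subunits 8 were above and 3 below 0 (median 0.18, 0 called, 0 at an unadjusted p under 0.05), and the smallest p was that of Itga10, a collagen-binding alpha chain (0.20 ± 0.11, SE, 5 against 5, adjusted p = 0.389). Of 11 tested ligands 7 were above 0 (median 0.08, 0 called), with the smallest p at the laminin chain Lama5 (-0.37, adjusted p = 0.221). Without KO3 the ligands turned, with 5 above and 6 below 0 (median -0.004). Of 21 tested activators and adaptors, which open integrins from inside, 17 were below 0 (median -0.28, 0 called, 7 at an unadjusted p under 0.05). Their medians were -0.05, -0.71 and 0.02 in the sets, beside -0.018, -0.22 and -0.010 over all genes. Leaving out KO3 gave 14 of the 21 below 0 (median -0.10). Among these Fermt3, kindlin-3, which binds beta chain tails in blood cells, was at 8.87 in KO1 against 9.18 in WT1, at 9.46 and 9.08 in KO2 and KO3 against 10.02 and 9.94 in WT2 and WT3, and at 9.63 and 9.51 in KO4 and KO5 against 10.05 and 10.19 in WT4 and WT5. It was lower in every KO array of each set, as held for 10.8% of all tested genes. Fermt3 differed by -0.57 ± 0.12 (SE, 5 against 5, limma adjusted p = 0.0710), or -0.49 without KO3, where it passed (adjusted p = 0.0111), as did 2.06% of all genes in that direction. In replicates 4 and 5 alone Fermt3 was at -0.55, where Itgb2 was at -0.03.

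Of 13 tested signalling genes downstream of integrins 9 were below 0 (median -0.11, 0 called), with the integrin-linked kinase gene Ilk at -0.34 (adjusted p = 0.253). The medians of these genes in the sets were -0.08, -0.36 and 0.05. Of 14 tested other adhesion and homing receptors 8 were below 0 (median -0.03, 0 called), or 7 without KO3 (median -0.0008). The chemokine receptor Cxcr3, which guides T cells to inflamed tissue, was at -0.85 ± 0.17 (SE, 5 against 5, limma adjusted p = 0.0556), or -0.72 without KO3 (adjusted p = 0.0110). Of 18 tested regulators of integrin genes 13 were below 0 (median -0.11, 0 called), with medians of -0.04, -0.49 and 0.12 in the sets. Without KO3, 10 of these regulators were below 0 (median -0.06). The one of smallest p was Prdm1, coding for Blimp-1, a transcription factor of effector T cells, at -0.68 ± 0.15 (adjusted p = 0.0725), or -0.61 without KO3 (adjusted p = 0.0237). Cxcr3 and Prdm1 were lower in all 3 sets.

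Markers of the cells in the cultures were read beside these. The 9 T cell identity genes were all below 0 by value (median -0.29, 0 called, Cd3g at -0.89, adjusted p = 0.190), with medians of -0.31, -0.67 and 0.05 in the sets, where the integrins had -0.10, -0.71 and 0.08. Of all tested genes 63.5% were below 0, and the brightest decile in replicates 2 and 3 had a median of -0.67. Their summed linear signal was 6620 in KO1 against 9487 in WT1, 8964 to 9333 in KO against 19379 to 19604 in WT of replicates 2 and 3, and 10758 to 11370 in KO against 10321 to 11406 in WT of replicates 4 and 5. Of 6 lineage genes 3 were above and 3 below 0 (median -0.07, Cd4 at -0.27, adjusted p = 0.438). Their part in the integrin values was not tested. Of other cells, 3 of 7 B cell, 3 of 10 myeloid, 1 of 5 NK, 3 of 6 basophil and mast cell, 2 of 2 erythroid and 1 of 6 stromal markers were bright enough to be tested, with 0 called in limma and medians of 0.10 to 0.26. In replicates 2 and 3 the dim deciles 1, 2 and 3 of all tested genes had medians of 0.21, 0.23 and 0.14. The part of brightness in the marker values was not tested. The named ones were Blk (0.25), Csf1r (0.20), Tyrobp (0.10), Kit (0.34), Epor (0.28) and Col3a1 (0.17), with adjusted p of 0.311 to 0.727. Kit, a receptor of mast cells and progenitors, passed with array weights (0.49, limma adjusted p = 0.0259), under which 1.16% of genes were called higher.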

How the data were processed

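Total RNA of CD3+ T cells was labelled with an oligo(dT) primed 3' kit and measured on Affymetrix arrays, 1 per mouse, per the labels' protocols. The deposited values are log2 signals made by the authors with RMA, per the submitters' processing notes; the version is not given in these sources. Of 241576 exon-level and 35556 gene-level probe sets, those naming 1 gene in the platform annotation were kept (212097 and 21789). Exon-level probe sets were averaged per gene on the log2 scale, and in the gene-level table the brightest was taken. The test kept genes whose mean log2 was not under the 30th percentile of either table (12485 of 19048).

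KO minus WT was fitted in R 4.3.3 with limma 3.58.1 (lmFit, eBayes, 2-sided, Benjamini-Hochberg adjusted p under 0.05) with scale sets as fixed block, also per table, as an interaction and per exon-level probe set. The SE of a pair is that of a least-squares fit with the same block. The fits were tested on simulated data. The number of arrays limits the precision. Alternatives were other normalizations, probe set summaries, filters, blocks, array weights and leaving out each array. Same-numbered KO and WT arrays deviated in opposite directions from their group means (r of -0.42 in replicates 2 and 3 and -0.24 in replicates 4 and 5). With 2 arrays of each genotype in a set, the crossed pairing has the opposite sign by construction. This check therefore cannot decide whether the numbers pair mice, and they were not taken to do so.

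The integrins, pairs and lists (other integrin subunits, ligands, activators and adaptors, signalling, adhesion and homing receptors, regulators of integrin genes, and cell type markers) were chosen with earlier results of these data known. Named genes were the members, Klf13, up to 4 called genes of each list or else the one of smallest p, the 3 genes nearest to the member of smallest p, and the probe sets of largest and smallest difference. Ms4a1, Klrb1c, Cd14, Cd79b, Cd68, Pf4, Ppbp, Gp9, Treml1, Cpa3, Cd2, Cd8a, Cd8b1, Foxp3, Zbtb7b, Runx3 and the other probe sets were named outside this rule, after their values were seen.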

Additional observations from a re-analysis of the deposited data

How the results depend on the processing

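Of the integrin differences over all arrays 207 alternative values kept direction and side of the threshold, 2 newly passed (Itga4, given above) and 7 turned: Itgb1 was at 0.029 under quantile normalization within each table, 0.032 within each scale set, 0.10 with the median of probe sets added, 0.22 with array weights and -0.26 to 0.16 when single arrays were left out, and Itga6 was at 0.10 with array weights. In the exon-level table leaving out arrays gave ranges of -0.27 to 0.0077 for Itgae, -0.21 to 0.36 for Itga4 and -0.81 to 0.048 for Itgb1, and in the gene-level table of -0.10 to 0.012 for Itgal and -0.48 to 0.14 for Itgb3. Over the alternatives the difference over all arrays lay between -0.33 and -0.07 for Itgb7, -0.26 and -0.02 for Itgal, 0.06 and 0.33 for Itgae, -0.54 and -0.26 for Itgb2, -0.68 and -0.32 for Itgav and -0.51 and -0.24 for Itgb3. For Itga4 it lay between 0.14 and 0.47. All 160 alternative values of the 8 pairs kept their direction and none passed. With the replicate block, or without KO1 or WT1, too few arrangements remained for any pair to pass. Filters, eBayes options and array weights do not enter that test. The NK marker Tyrobp was at -0.027 with array weights and -0.038 (without KO3) to 0.19 with single arrays left out. Fermt3 also passed with array weights (adjusted p = 0.00615) and array medians subtracted (0.0495), Prdm1 with array weights (0.00925), and Cxcr3 with array weights (0.0042), array medians subtracted (0.0356) and quantile normalization within each scale set (0.04995).

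The count of 73 genes over all arrays was 4 with the table as block, 23 with the replicate block, 31 with the median of probe sets, 39 with quantile normalization added to it, 504 with array weights and 11 (without WT4) to 358 (without KO3) with single arrays left out. The 339 genes of the gene-level table became 660 with the replicate block, 938 with the crossed pairing of replicate numbers, an alternative chosen after seeing the data, and 193 (without KO4) to 529 (without WT5). The exon-level count of 0 became 48 with the replicate block, 10 with the crossed pairing and 0 to 426; the interaction count of 0 ranged from 0 to 123 and the probe set count from 0 to 108, each highest without KO3. The replicate block changed no other integrin call than that of Itga4 in the gene-level table. The causes of these changes were not tested.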

Other observations

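Over the 10 arrays, after subtraction of each scale set's mean, the tested genes with the pattern most like that of Itgav, the integrin of smallest p, were Jarid2, a cofactor of Polycomb repression, at a root mean square distance of 0.038 log2 units, the GTPase gene Gimap7, a member of a family expressed in lymphocytes, at 0.057, and the histone methyltransferase gene Nsd3 at 0.071. Each was below 0 by value in the 3 sets, with -0.37, -1.16 and -0.11 for Jarid2, -0.31, -1.18 and -0.17 for Gimap7, and -0.21, -1.11 and -0.14 for Nsd3, beside -0.26, -1.11 and -0.19 for Itgav. None passed over all arrays (limma, adjusted p of 0.206 to 0.235). Within the 5 arrays of a genotype, 0 of 36 groups of values of the integrins and their pairs held 1 array far from the other 4 by Dixon's ratio. Each group spans the 3 scale sets, and this result does not clear KO3, which stood apart across probe sets.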
